A study of Mus musculus with 3 samples.

Results

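Platelet-derived growth factor (PDGF) receptors, their ligands and a pair of fibroblast surface genes were measured in 3 cultures of a mouse stem cell culture model of heart tissue. The 7 genes were taken by name, with earlier results of these data known. They are the receptors Pdgfra and Pdgfrb, the ligands Pdgfa, Pdgfb and Pdgfc, the collagen receptor Ddr2 and the surface glycoprotein Thy1. All 7 were listed in each of the 3 count tables, among 27886 genes listed in at least 1 of them. The receptors and Ddr2 stood far higher in beating cardiac bodies than in embryonic stem cells, whereas Pdgfa and Pdgfc were already abundant in the stem cells and differed by less than 2-fold between any of the 3 cultures. In pools 1 and 3 of the cardiac bodies most cells with a receptor carried both. In the precursor culture 9 cells had Pdgfra and 29 had Pdgfrb, with 1 cell in common, close to the 1.49 that the product of the shares gives. Of the Pdgfra cells 4, all of pool 1, carried endoderm genes and few fibroblast genes, while 3 of pool 2 carried fibroblast genes, as most Pdgfrb cells did.

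PDGFs are secreted dimers that bind a pair of receptor tyrosine kinases on the surface of the receiving cell. Ligand binding brings receptor chains together, the chains phosphorylate each other, and adaptor proteins then engage the Ras-MAP kinase, PI3 kinase and phospholipase C routes. PDGF-A signals through the alpha receptor alone and PDGF-B can engage either receptor. PDGF-C, which must first be cut by a protease such as tissue plasminogen activator, acts mainly through the alpha receptor. In the heart the alpha receptor is best known from fibroblasts and their epicardial precursors, and the beta receptor from the mural cells that endothelial cells recruit by releasing PDGF-B. In the early embryo Pdgfra is a marker of primitive endoderm. Ddr2 binds fibrillar collagen, and Thy1 is a GPI-anchored protein found on many fibroblasts and other cells.

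The measurements were full-length single-cell RNA-seq of cells captured on a microfluidic chip. The mESC sample holds 215 embryonic stem cells, taken from male F1 clones of a C57BL/6J mother and a CAST/EiJ father and kept without feeder cells in serum with 2i inhibitors and LIF. The CPCC sample holds 175 cells of a cardiac precursor culture, made by dissociating embryoid bodies from ascorbic acid medium and passaging the cells 3 times with EGF and Fgf2. The CB sample holds 232 cells of cardiac bodies, which are floating aggregates grown in ascorbic acid medium and picked because they were beating. All 3 cultures carry the same hybrid genome and none carries an engineered allele. CPCCs and CBs were made separately, so neither is a later stage of the other. With 1 sample per culture there was no test between cultures, and each interval given here covers counting error only. The cell names divide each culture into pools, 3 for mESC, 2 for CPCC and 3 for CB. The mESC sample is labelled a triplicate. According to the methods, clones from 3 blastocysts were used throughout and the libraries of each chip were pooled, with some pools merged afterwards. Neither the labels nor the methods tie a pool to a clone, so pools may be biological replicates in whole or in part, and their range is shown as a description of spread and not as a replicate error.

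Median counts per cell were 1528316 in mESC, 1437414 in CPCC and 1397869 in CB, and the median number of genes per cell was 9532, 9252 and 6661. Of the 622 cells, no 2 shared a name or a set of values. Summed levels of a fixed list of 10 pluripotency genes were 10363, 3046 and 247.0 CPM (counts scaled to a common library size) in mESC, CPCC and CB, but the CB table lists 8 of the 10. Dppa5a, which it does not list, made up 7985 CPM in mESC, and Klf4, higher in CB than in mESC (log2 ratio 1.17), made up 129 CPM in CB. The 10 fibroblast genes, of which the mESC table lists 4, summed to 47.6, 550.3 and 9641 CPM. Of 12 cardiomyocyte genes the mESC table lists 10, without Actc1 and Nppa, and the sums were 25.7, 135 and 454 CPM, with Myh6 in 6.03% and Actc1 in 15.1% of CB cells, and to only 19.9 CPM in CB pool 3. The cells labelled cardiac bodies were thus a mixture, and CB pool 2 stood apart, with 493 CPM of fibroblast genes against 14749 and 15823 CPM in pools 1 and 3. Every CB value of the receptors, Ddr2 and Thy1 is lower in that pool.

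The promoters of Pdgfra and Ddr2, which were high together in CB, are shown beside those of Pdgfa and Pdgfc, which were present in all 3 cultures. They are RefSeq windows on GRCm38.p6, 250 bases before to 50 bases after an annotated start, written 5′ to 3′ along the gene, with CpG dinucleotides in capitals.
Pdgfra (chr5:75152001-75152300, plus strand): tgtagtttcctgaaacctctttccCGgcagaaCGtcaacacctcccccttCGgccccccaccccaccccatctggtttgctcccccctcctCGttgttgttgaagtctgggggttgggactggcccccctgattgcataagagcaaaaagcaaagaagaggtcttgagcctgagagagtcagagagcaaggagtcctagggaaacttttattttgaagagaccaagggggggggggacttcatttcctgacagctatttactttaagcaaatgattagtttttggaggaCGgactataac
Ddr2 (chr1:170088895-170089194, minus strand): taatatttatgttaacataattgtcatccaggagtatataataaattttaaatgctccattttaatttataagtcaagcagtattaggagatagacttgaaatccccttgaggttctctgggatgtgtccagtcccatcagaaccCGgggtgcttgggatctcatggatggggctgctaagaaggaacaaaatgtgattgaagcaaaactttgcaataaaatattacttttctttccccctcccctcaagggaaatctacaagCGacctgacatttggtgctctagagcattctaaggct
Pdgfc (chr3:81036166-81036465, plus strand): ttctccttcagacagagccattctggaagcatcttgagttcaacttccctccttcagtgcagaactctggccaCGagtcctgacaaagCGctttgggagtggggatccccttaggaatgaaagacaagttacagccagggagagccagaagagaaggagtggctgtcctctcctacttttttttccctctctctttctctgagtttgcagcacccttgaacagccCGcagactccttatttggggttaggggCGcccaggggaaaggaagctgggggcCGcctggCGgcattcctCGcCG
Pdgfa (chr5:138994895-138995194, minus strand): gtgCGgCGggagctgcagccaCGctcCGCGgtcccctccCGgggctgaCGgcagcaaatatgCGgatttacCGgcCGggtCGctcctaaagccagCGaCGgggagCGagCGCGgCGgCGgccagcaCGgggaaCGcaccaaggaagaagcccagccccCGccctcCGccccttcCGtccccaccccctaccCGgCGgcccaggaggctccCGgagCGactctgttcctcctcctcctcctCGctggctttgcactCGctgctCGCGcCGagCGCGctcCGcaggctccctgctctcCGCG

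The Pdgfra window held 5 CpGs and the Ddr2 window 2, while the Pdgfc and Pdgfa windows held 8 and 37. Among 32544 mouse promoter windows of 300 bases, the median was 7 CpGs, and 62.3%, 86.0%, 48.9% and 5.63% of windows held at least as many as Pdgfra, Ddr2, Pdgfc and Pdgfa. The motif GGGCGG, searched on both strands, occurred in 35.9% of all windows and, of these 4, only in that of Pdgfa, with 2 matches. TATAAA occurred in 13.6% of all windows and, of these 4, only in that of Ddr2, with 1 match. Neither CCAAT (37.4% of all windows) nor CACGTG (7.17%) occurred in any of the 4. The Pdgfc start coincides with the gene start in the GENCODE M21 annotation and that of Pdgfra lies 41 bases before it. Those of Pdgfa and Ddr2 lie 2426 and 21818 bases inside the annotated genes, so they are internal starts, and a second Pdgfa start, not shown, lies 3089 bases inside. Pdgfb (chr15:79995874-80014977, minus strand) and Thy1 (chr9:44043384-44048579, plus strand) and Pdgfrb (chromosome 18) are named only.

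Pdgfra, the receptor for PDGF-A and PDGF-C, was close to absent from mESCs. It summed to 0.137 CPM in mESC (95% Poisson interval 0.101 to 0.181), to 7.45 CPM in CPCC (7.13 to 7.77) and to 164 CPM in CB (162 to 165). By pool the levels were 0.0724, 0.233 and 0.0774 CPM in mESC, 11.7 and 3.42 CPM in CPCC, and 188, 30.0 and 276 CPM in CB. Every CB pool lay above every CPCC pool, and every CPCC pool above every mESC pool. The share of cells with at least 1 count was 1.40% (95% Clopper-Pearson interval 0.289 to 4.02%) in mESC, 5.14% (2.38 to 9.54%) in CPCC and 44.0% (37.5 to 50.6%) in CB. The log2 ratio of CPM + 1 was 7.18 for CB over mESC, 4.28 for CB over CPCC and 2.89 for CPCC over mESC. A few cells carried the low values: 1 cell held 66.7% of the 48 mESC counts, and 1 cell held 50.5% of the 2055 CPCC counts, without which the CPCC level was 3.72 CPM. In CB, 13 of the 102 cells with Pdgfra held 50% of its counts, and values among those cells ran from 0.459 to 2515 CPM with a median of 204 CPM.

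Pdgfrb, the receptor that PDGF-B reaches on mural cells and fibroblasts, followed the same order with a wider reach in CPCC. Its levels were in mESC 0.333 CPM (0.276 to 0.399), in CPCC 9.54 CPM (9.18 to 9.92) and in CB 76.8 CPM (75.8 to 77.7). The mESC pools had 0.669, 0.313 and 0 CPM, the CPCC pools 0.757 and 17.8 CPM, and the CB pools 91.6, 18.3 and 124 CPM. CPCC pool 1 was thus hardly above the highest mESC pool, and CB pool 2 hardly above CPCC pool 2, although no pools of different cultures overlapped. Pdgfrb was detected in 2.33% (0.759 to 5.34%) of mESCs, 16.6% (11.4 to 22.9%) of CPCC cells and 44.8% (38.3 to 51.5%) of CB cells. The log2 ratio was 5.87 for CB over mESC, 2.88 for CB over CPCC and 2.98 for CPCC over mESC.

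Ddr2, which binds fibrillar collagen, had the same order as the receptors. It summed to 0.945 CPM (0.846 to 1.05) in mESCs, 24.5 CPM (23.9 to 25.1) in CPCCs and 76.8 CPM (75.9 to 77.8) in CBs, and was detected in 4.65%, 17.1% and 35.8% of cells. The mESC pools had 1.43, 0.284 and 1.31 CPM, the CPCC pools 9.17 and 38.9 CPM and the CB pools 79.9, 15.6 and 132 CPM. Both later cultures lay above mESC in every pool, but CB pool 2 lay below CPCC pool 2. Thy1 stayed low, at 0.769 CPM (0.680 to 0.866) in mESCs, 2.33 CPM (2.15 to 2.51) in CPCCs and 9.45 CPM (9.12 to 9.78) in CBs. Its share of cells was 12.1% (8.05 to 17.2%), 17.7% (12.4 to 24.2%) and 15.9% (11.5 to 21.3%). By pool the shares were 17.8%, 6.49% and 10.4% in mESC, 17.7% and 17.7% in CPCC, and 27.5%, 3.85% and 17.6% in CB. The level in the cells that had Thy1 differed between cultures. The median over cells with Thy1 was 4.89, 6.74 and 32.9 CPM in the order mESC, CPCC, CB. CB pool 2, at 1.32 CPM, lay below both CPCC pools, at 1.67 and 2.94 CPM, while CB pools 1 and 3 reached 19.6 and 12.5 CPM.

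**Figure D1:**
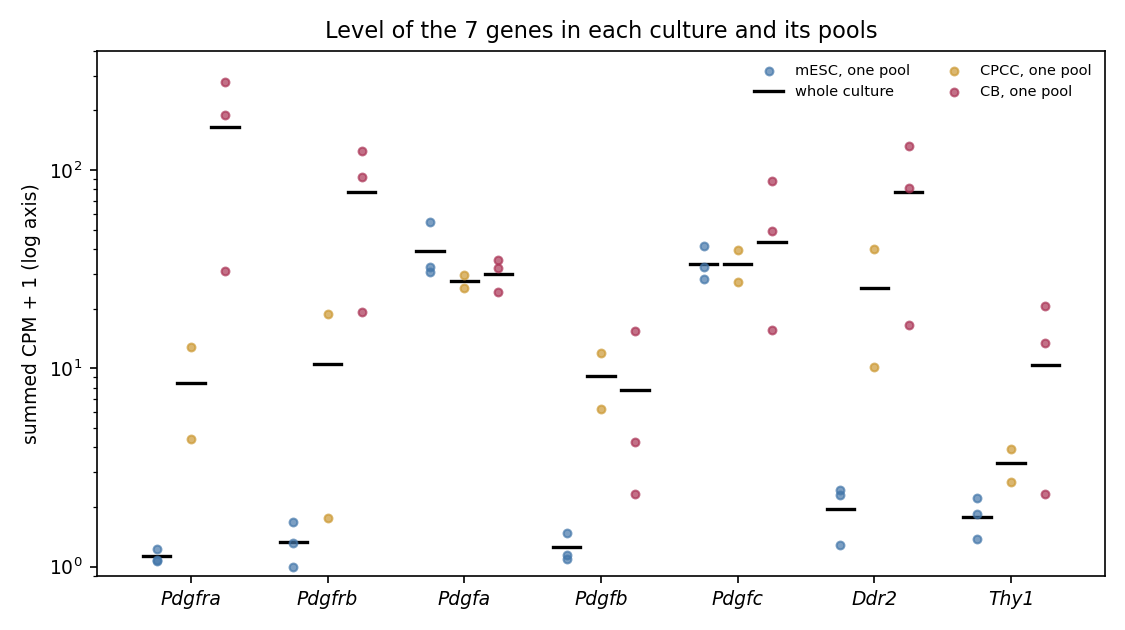
Summed level of each gene on a log axis (CPM + 1). Points are the pools of a culture and black lines the whole culture: Pdgfra is at 0.137 CPM in mESC and 164 CPM in CB, while Pdgfa and Pdgfc lie between 26.5 and 42.4 CPM in every culture.

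Of the ligands, Pdgfa was found in the largest share of stem cells, ahead of Pdgfc. Its level was 37.9 CPM (37.2 to 38.5) in mESCs, 26.5 CPM (25.9 to 27.1) in CPCCs and 28.9 CPM (28.4 to 29.5) in CBs, and its pools overlapped between mESC and CB, with 29.5 to 53.6 CPM against 23.2 to 34.1 CPM. Both CPCC pools, at 28.7 and 24.5 CPM, lay below every mESC pool, and the log2 ratio of CPCC over mESC was -0.50. The share of cells was 85.6% (80.2 to 90.0%), 64.6% (57.0 to 71.6%) and 40.1% (33.7 to 46.7%). Pdgfc behaved alike: 32.6 CPM (32.0 to 33.2) in mESCs, 32.6 CPM (32.0 to 33.3) in CPCCs and 42.4 CPM (41.7 to 43.1) in CBs, in 129 of 215, 72 of 175 and 77 of 232 cells. The summed amount thus came from fewer cells in CPCC and CB. For CB that held for most genes: over 1286 genes at 20 to 60 CPM in mESC whose log2 ratio of CB over mESC was within 0.5, limits set after the data were seen, the median share was 78.1% in mESC and 43.1% in CB, and 98.5% of these genes had the lower share in CB. For CPCC over 1803 such genes the medians were 77.7% and 74.3%, and 65.6% of the genes had the lower share in CPCC. A fall in share at least as large as that of Pdgfa was found in 0.887% of these genes, and one as large as that of Pdgfc in 1.66%. In CB the values were 5.29% and 64.5%. The median over cells with Pdgfc was 32.5, 45.5 and 63.7 CPM. The CB pools of Pdgfc, at 87.5, 14.6 and 48.3 CPM, spanned those of both other cultures. The log2 ratios of CB over mESC were -0.38 for Pdgfa and 0.37 for Pdgfc.

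Pdgfb, known as a ligand that endothelial cells release, was the exception among the ligands. It rested at 0.262 CPM (0.211 to 0.321) in mESC, with 66.3% of its 92 counts in 1 cell, and reached 8.19 CPM (7.85 to 8.53) in CPCC and 6.77 CPM (6.50 to 7.05) in CB. The CPCC pools, at 5.22 and 10.96 CPM, fell within the range of the CB pools, at 3.26, 14.4 and 1.32 CPM, and both sets lay above the mESC pools, at 0.0968 to 0.481 CPM. CB pool 2, the poorest in receptors, was the richest in Pdgfb. It was detected in 4.19% (1.93 to 7.80%) of mESCs, 22.3% (16.4 to 29.2%) of CPCC cells and 11.2% (7.45 to 16.0%) of CB cells.

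**Figure D2:**
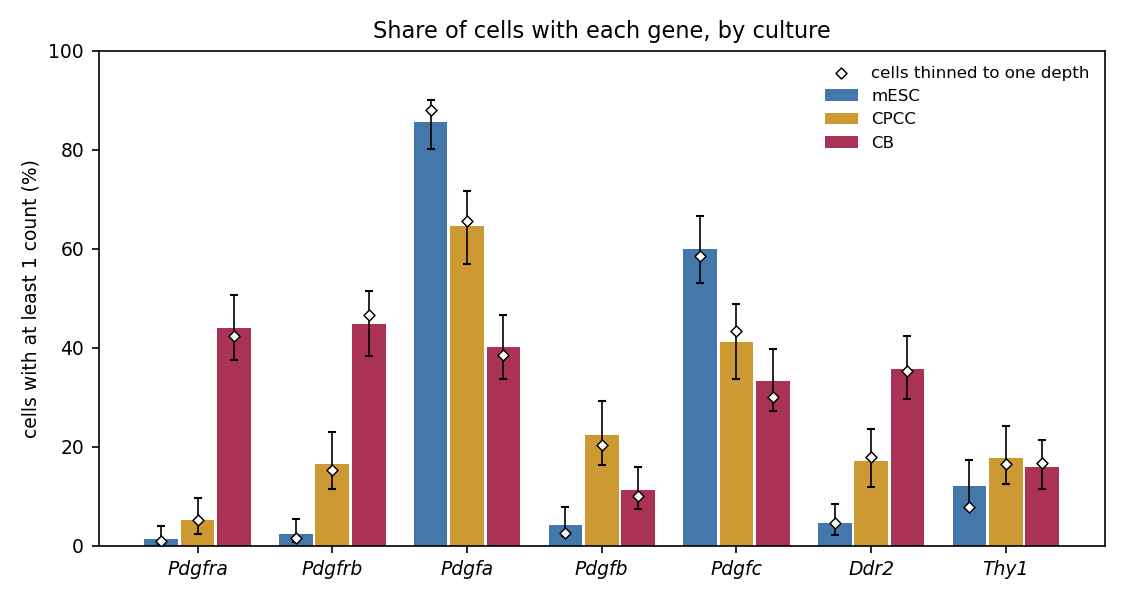
Percent of cells with at least 1 count of each gene, with 95% Clopper-Pearson intervals; diamonds give the share after every cell was thinned to 430000 counts (193, 157 and 210 cells). The receptors and Ddr2 have their highest share in CB, while Pdgfa has its highest in mESC (85.6% against 40.1% in CB).

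Most of the shares were close to these at equal total counts. When each cell was thinned to 430000 counts, Pdgfra was found in 1.04%, 5.10% and 42.4% of cells, Pdgfrb in 1.55%, 15.3% and 46.7%, and Pdgfa in 88.1%, 65.6% and 38.6%. The share of Thy1 cells in mESC was 7.77% after thinning and 12.1% before, and that of Pdgfb cells in mESC 2.59% and 4.19%.

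On a scale per length (CPM per kilobase of merged exons), the order of the 7 genes differed between cultures. In mESC the ligands Pdgfa (12.1) and Pdgfc (6.40) led, and the pools of these genes did not overlap with each other or with Thy1 (0.257), which came next. Ddr2 (0.102), Pdgfb (0.0630), Pdgfrb (0.0608) and Pdgfra (0.0136) followed, each overlapping the gene before it over pools. In CPCC, Pdgfa (8.51) and Pdgfc (6.41) again led without overlap, ahead of Ddr2 (2.65), Pdgfb (1.97), Pdgfrb (1.74), Thy1 (0.777) and Pdgfra (0.743). In CB the receptors led, with Pdgfra at 16.3 and Pdgfrb at 14.02, followed by Pdgfa (9.28), Pdgfc (8.33), Ddr2 (8.29), Thy1 (3.15) and Pdgfb (1.63), and there every neighbouring pair overlapped over pools.

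On the log2(CPM + 1) scale, 4 of the 7 genes were at least 2-fold higher in CPCC than in mESC, where 13.4% of all genes listed in both tables were. For CB over mESC the number was 5 of 7, beside 24.9% of all genes, and for CB over CPCC it was 4 of 7, beside 17.0%. No member was 2-fold lower in any of the 3 pairs, where 6.38%, 11.3% and 7.54% of all genes were. With a pseudocount of 10 CPM in place of 1 the numbers were 1 (Ddr2), 3 and 3 of 7, beside 5.13%, 11.7% and 5.55% of all genes. The median log2 ratio of the members was 2.86, 2.62 and 1.61, against -0.02, 0.13 and 0.14 over all genes. The first was 0.59 without CPCC pool 2, and the third was 0.54 without CB pool 3 and 0.96 without CPCC pool 1. The genes were named with earlier results of these data known, and the 3 pairs share samples, so these counts are a description. Without CB pool 2, 1 member, Pdgfb, was at least 2-fold lower in CB than in CPCC. Without CPCC pool 2 the log2 ratio of Pdgfrb for CPCC over mESC was 0.40, and without CB pool 3 or CPCC pool 1 that of Ddr2 for CB over CPCC was 0.54 or 0.96. With TMM scaling Pdgfa changed sign for CB over CPCC (-0.07), and with DESeq2 scaling Pdgfc did for CPCC over mESC (-0.03).

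At the level of single cells, 7 of 215 mESCs (3.26%, 1.32 to 6.59%), 37 of 175 CPCC cells (21.1%, 15.3 to 27.9%) and 127 of 232 CB cells (54.7%, 48.1 to 61.3%) had a count of Pdgfra or Pdgfrb. In CB, 79 cells had both receptors, 23 only Pdgfra and 25 only Pdgfrb. Both were found in 34 of the 49 receptor cells of pool 1 and 40 of the 59 of pool 3, but in 5 of the 19 of pool 2. The share with either was 71.0% in pool 1, 24.4% in pool 2 and 69.4% in pool 3. In CPCC a single cell had both, 8 had only Pdgfra and 28 only Pdgfrb. The product of the shares of cells with each receptor gives 1.49 cells with both in CPCC, close to the 1 found, and 45.7 cells in CB, where 79 were found. Taken within pools and summed, since the shares differ between pools, the product gives 1.29 and 55.6 cells. In the CB pools it gives 24.96, 1.83 and 28.8 cells, beside the 34, 5 and 40 found. The 29 Pdgfrb cells lay mainly in pool 2, with 4 in pool 1 and 25 in pool 2, whereas the 9 Pdgfra cells were split as 5 and 4. The Spearman correlation of the receptors over cells was 0.55 in CB (219 cells with at least 100000 counts) and -0.02 in CPCC (169 cells). Within CB pools it was 0.36, 0.28 and 0.54. These coefficients describe sparse counts of cells that share a chip and a library pool.

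**Figure D3:**
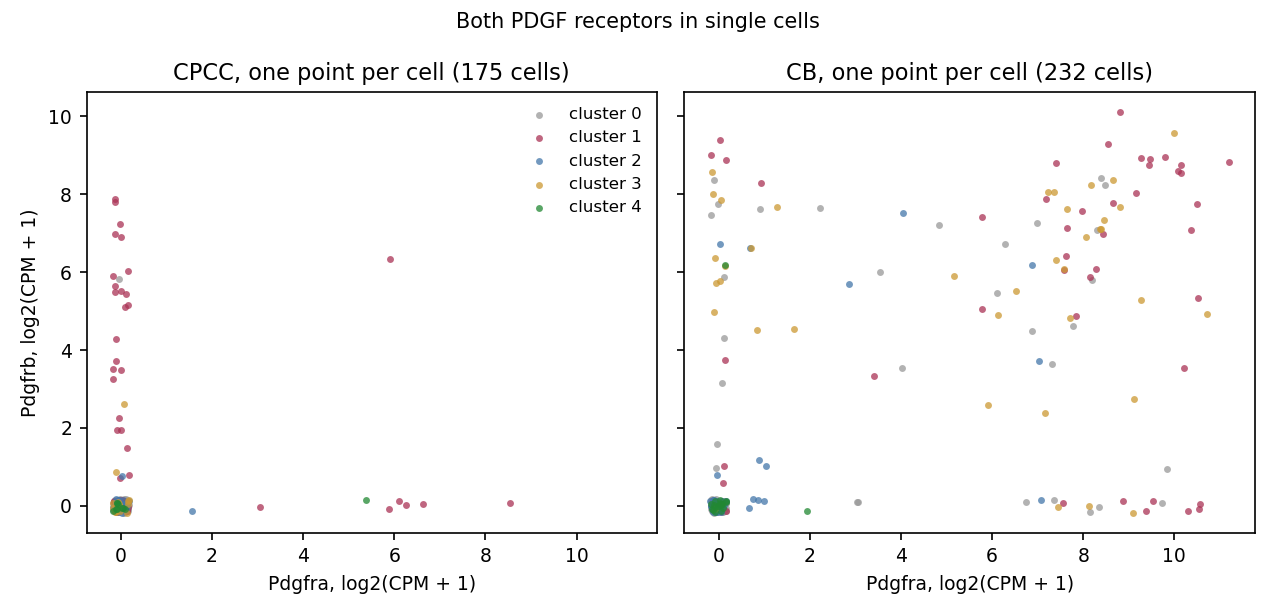
Pdgfra against Pdgfrb in single cells of CPCC and CB as log2(CPM + 1), coloured by the cluster of the cell; points are spread slightly so that cells at 0 can be seen. In CPCC 1 cell has both receptors and 36 have only 1 of them, while in CB 79 cells have both.

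The 9 Pdgfra cells of CPCC were not of 1 kind. Fibroblast genes summed to 840 CPM in them and 527 CPM in cells without Pdgfra, and 22.2% and 18.1% of the cells had at least 50% of the list. In none of the 9 was Ddr2, Thy1 or Pdgfb detected, where the exact 95% interval reaches 33.6%. Their summed level of 8 primitive endoderm genes was 1418 CPM, and 5 of the 9 had at least 50% of these genes, against 0 of the 138 cells with neither receptor and 1 of the 28 with Pdgfrb only. Other lists were higher in the 9 cells than in cells without Pdgfra too, with 889 against 73.1 CPM of cardiomyocyte genes, 173 against 71.3 CPM of cardiac progenitor genes and 245 against 128 CPM of endothelial genes. At least 50% of the list was found in 0, 0 and 1 of the 9 for these lists. Taken cell by cell in descending order of Pdgfra counts (1038, 331, 179, 178, 172, 142, 11, 3 and 1), the number of endoderm genes was 6, 4, 6, 6, 6, 0, 2, 1 and 1. The 4 cells with 6 endoderm genes were all from pool 1, had 72.4 to 355 CPM of Pdgfra, and had 12.3 to 109 CPM in the 10-gene fibroblast list. Among the 9 cells Sox17, an endoderm transcription factor, was found in 6, Gata6 in 5, and Sox7, Foxa2 and the basement membrane gene Lama1 in 4 each. In the 138 cells with neither receptor the same genes were found in 6, 8, 5, 3 and 28 cells. Dab2, which was in 8 of the 9, was also in 65 of the 138. The 4 pool 2 cells looked different: 3 of them had 1555 to 2509 CPM of fibroblast genes, and the last had 3 counts of Pdgfra. The fifth pool 1 cell had 1 count and only 24041 counts in all. The cell with both receptors, which had the second highest count, had 6 of the 10 fibroblast genes beside 4 endoderm genes. The 9 cells were also deeper, with a median of 2208523 counts against 1359818 in cells without Pdgfra, and the part of depth was not tested.

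The Pdgfrb cells of CPCC had another company. The 28 cells with only Pdgfrb had Ddr2 in 71.4% (51.3 to 86.8%), Pdgfc in 78.6% (59.05 to 91.7%) and Thy1 in 46.4% (27.5 to 66.1%). In cells with neither receptor these shares were 7.25%, 35.5% and 13.0%. Of the 28 cells 24 were from pool 2, where the counts were 19, 19 and 12 of 24 against 8.82%, 11.8% and 7.35% with neither receptor. In pool 1 they were 1, 3 and 1 of 4 cells against 5.71%, 58.6% and 18.6%. The median depth of the 28 cells was 1743202 counts against 1243048 in cells with neither, and the part of depth was not tested. At least 50% of the fibroblast genes were found in 20 of the 28 and at least 50% of the mural and smooth muscle genes in 24, with summed levels of 2026 and 18002 CPM, against 152 and 2952 CPM in cells with neither receptor. Macrophage genes summed to 2049 CPM in them and 3839 CPM in cells with neither, but at least 50% of the macrophage list was found in 10 of the 28 against 23 of the 138. The median number of macrophage genes per cell was 4 against 1. These lists differed between pools, and pool 2 held 24 of the 28 cells but 68 of the 138. In pools 1 and 2 macrophage genes summed to 16.9 and 6216 CPM over all cells. Fibroblast genes were at 115 and 958 CPM, and mural and smooth muscle genes at 4079 and 7484 CPM. The list values of the 28 cells were not split by pool. None of the 30 CPCC cells with Ddr2 had Pdgfra, and 20 of them had Pdgfrb. Only 5 of the Ddr2 cells came from pool 1.

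In CB most cells with a receptor carried fibroblast genes. Of the 79 cells with both, 77 had at least 50% of the fibroblast genes, which summed to 20474 CPM in them. The corresponding numbers were 16 of 23 (11086 CPM) for Pdgfra only, 23 of 25 (11620 CPM) for Pdgfrb only and 35 of 105 (345.0 CPM) for neither. Pool 2 held 59 of the 105 cells with neither receptor and 5 of the 79 with both. Within pools 1, 2 and 3 the fibroblast genes summed to 19781, 1511 and 23233 CPM in cells with both receptors and to 638, 204 and 557 CPM in cells with neither. The Pdgfra-only cells of pool 2 were at 254 CPM, with 0 of 6 carrying 50% of the list, against 17393 and 18033 CPM in pools 1 and 3. Among cells with neither receptor, 50% of the list was found in 11 of 20, 4 of 59 and 20 of 26. Mural and smooth muscle genes, where Pdgfrb is the textbook marker, summed to 6076 CPM in the Pdgfrb-only cells, 1391 CPM in cells with both and 454 CPM in the Pdgfra-only cells. At least 50% of that list was found in 6 of the 25, 12 of the 79 and 0 of the 23, and in 3 of the 105 with neither, so a minority of cells had 50% or more of these genes. By pool the mural list summed to 16098, 4202 and 3394 CPM in the Pdgfrb-only cells, 1867, 1122 and 1207 CPM in cells with both, and 599, 697 and 169 CPM in the Pdgfra-only cells, the same order in each pool. Cells with neither receptor had 1961 CPM in pool 1, above those with both, and 557 and 123 CPM in the other pools. By pool, 50% of the mural list was found in 3 of 7, 3 of 8 and 0 of 10 Pdgfrb-only cells. In cells with both it was found in 8 of 34, 1 of 5 and 3 of 40, so pool 3 went against the order of the sums. Only 2 of the 102 Pdgfra cells in CB had 50% or more of the endoderm genes. Ddr2 was found in 68.4% (56.9 to 78.4%) of cells with both receptors, 43.5% (23.2 to 65.5%) of those with Pdgfra only, 48.0% (27.8 to 68.7%) with Pdgfrb only and 6.67% (2.72 to 13.3%) with neither. Of 83 Ddr2 cells 76 had a receptor, and of 37 Thy1 cells 35 did. Median depth was 1361176 counts in receptor cells and 1435912 in the others.

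A PDGF ligand and a receptor were often found in the same cell, and the ligands differed in which cells they favoured. At least 1 ligand was detected in 32 of 37 receptor cells of CPCC (86.5%, 71.2 to 95.5%) and 101 of 138 others (73.2%, 64.99 to 80.4%). In CB the counts were 74 of 127 (58.3%, 49.2 to 67.0%) and 64 of 105 (61.0%, 50.9 to 70.3%). In CPCC the direction differed between pools: in pool 1 the shares were 66.7% of 9 receptor cells and 92.9% of 70 others, against 92.9% and 52.9% in pool 2. Pdgfa, whose receptor is Pdgfra, was in 38.6% of CB receptor cells and 41.9% of the others, at 24.05 and 35.2 CPM. In CPCC it was in 4 of 9 Pdgfra cells and 23 of 29 Pdgfrb cells. Pdgfc leaned to the receptor cells, with 40.2% (31.6 to 49.2%) against 24.8% (16.9 to 34.1%) in CB, at 59.1 and 21.03 CPM, and 62.2% (44.8 to 77.5%) against 35.5% (27.6 to 44.1%) in CPCC, where pool 1 went the other way with 44.4% against 58.6% and pool 2 had 67.9% against 11.8%. In the 9 Pdgfra cells of CPCC, by contrast, it was found once. Within CB pools the Pdgfc shares were 42.9% against 35.0%, 26.3% against 18.6% and 42.4% against 30.8%. The receptors differed in CB: Pdgfc was in 26.1% of Pdgfra-only cells, 48.0% of Pdgfrb-only cells and 41.8% of cells with both. Cells with Pdgfra against those without it had 40.5% against 40.7%, 9.09% against 22.4% and 42.9% against 33.3% in the 3 CB pools.

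Pdgfb leaned the other way. In CB it was found in 5.51% (2.24 to 11.03%) of receptor cells and 18.1% (11.3 to 26.8%) of the others, at 0.955 and 14.2 CPM. In each CB pool the receptor cells had the lower share: 1 of 49 against 3 of 20 cells, 3 of 19 against 13 of 59 and 3 of 59 against 3 of 26. In CPCC the shares were 10.8% (3.03 to 25.4%) and 25.4% (18.3 to 33.5%), lower in receptor cells of both pools (11.1% against 14 of 70 cells, and 10.7% against 30.9%). The 26 Pdgfb cells of CB had 1975 CPM of 10 endothelial genes and 480 CPM of fibroblast genes, where cells without Pdgfb had 237 and 10975 CPM. In 11 of the 26 at least 50% of the endothelial genes were detected, and in 12 of the 206 cells without Pdgfb. Of the 26 cells 16 were from pool 2, which holds most of the endothelial genes and few of the fibroblast genes of the culture. Within pool 2 the Pdgfb cells had 3013 CPM of endothelial and 68.1 CPM of fibroblast genes, against 617 and 608 CPM in its other 62 cells. In pools 1 and 3 none of the 10 Pdgfb cells had 50% of the endothelial list, which summed to 86.6 and 0.0996 CPM, while fibroblast genes were at 1254 and 1251 CPM against 15905 and 16916 CPM in the cells without Pdgfb. Epithelial genes were higher still, at 5899 CPM in the Pdgfb cells and 3108 CPM in the rest. At least 50% of that list was found in 12 of 26 and 78 of 206 cells. In pools 1, 2 and 3 these counts were 2 of 4 against 19 of 65, 5 of 16 against 24 of 62 and 5 of 6 against 35 of 79. By pool, epithelial genes summed to 8984, 1010.3 and 18041 CPM in the Pdgfb cells, against 2119, 1047 and 5135 CPM in the rest. Primitive endoderm genes summed to 2640 CPM in these 26 cells and 525 CPM in the others, and by pool to 790, 3889 and 57.1 CPM against 290, 1092 and 185 CPM, so that pool 3 went the other way. In CPCC the endothelial list summed to 288 CPM in the 39 Pdgfb cells and 89.2 CPM in the 136 without Pdgfb, and the macrophage list to 5182 and 2600.5 CPM. At least 50% of the endothelial list was found in 3 of the 39 and 3 of the 136, and of the macrophage list in 10 and 23. Epithelial genes summed to 1783 and 1054 CPM, with 50% of the list in 19 and 70 cells. Of the 39 cells 24 were from pool 2, where macrophage genes summed to 6216 CPM, against 16.9 CPM in pool 1.

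**Figure D4:**
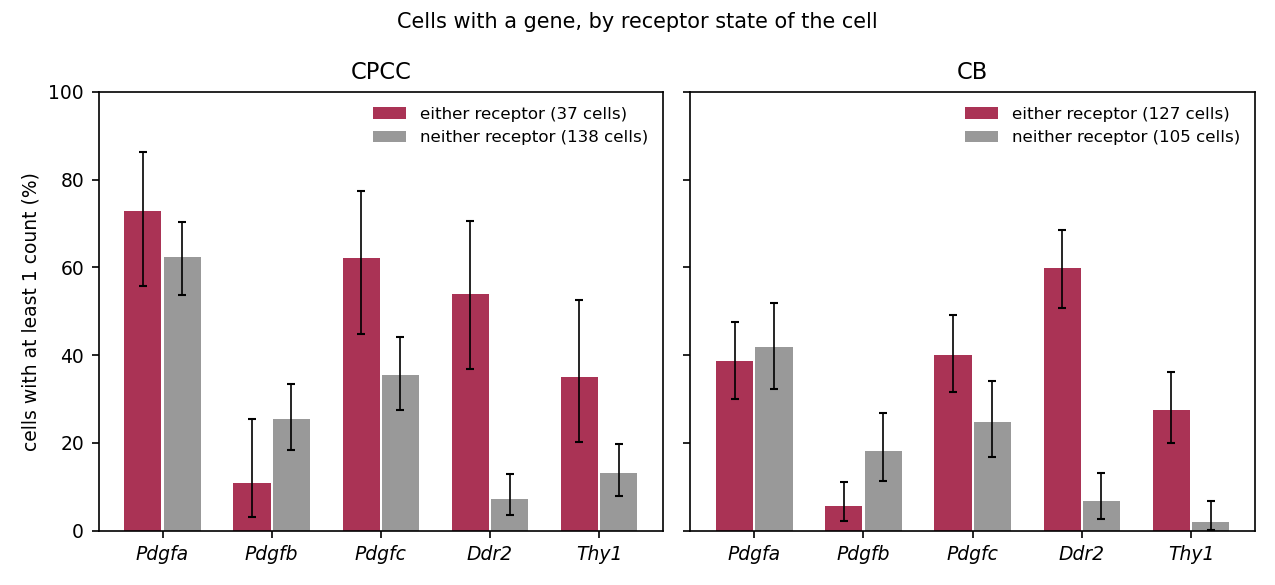
Percent of cells with each ligand, Ddr2 and Thy1 in cells with either receptor (red) and in cells with neither (grey), with 95% Clopper-Pearson intervals. In CB Ddr2 is in 59.8% of receptor cells and 6.67% of the others, while Pdgfb is in 5.51% and 18.1%.

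Clusters of each culture, built from all variable genes, placed the members as follows. Because the clustering used these cells' expression, the values are descriptions without a test. CB cluster 1 (44 cells, fibroblast-like, led by genes that include Omd, Ccn5, Cxcl14 and Cpxm2) held 69.2% of all Pdgfra counts, with 507 CPM in 84.1% of its cells, and 64.0% of Pdgfrb counts. CB cluster 3 (38 cells, unnamed because Actg2 led a set of fibroblast genes, with Clca3a1, Col6a6, Dlk1 and Vegfd) had lower levels of both receptors, at 221 and 110 CPM. Pdgfra was in 76.3% of its cells, whereas Pdgfrb was in 89.5%, against 81.8% in cluster 1. It had more Pdgfc, at 109 CPM against 58.7 CPM in cluster 1, and more Thy1, in 44.7% (28.6 to 61.7%) of cells against 18.2% (8.19 to 32.7%). Pools differed here, since cluster 1 held 37 cells of pool 3 and 7 of pool 1, and cluster 3 held 10 and 28. Neither held a cell of pool 2. With a coarser clustering or more components CB gave 4 clusters, and all 38 cells of cluster 3 joined 42 or all 44 cells of cluster 1, so the division between them rests on the settings. Within pool 1 Thy1 was in 0 of 7 cells of cluster 1 and 14 of 28 of cluster 3, and within pool 3 in 8 of 37 and 3 of 10.

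CB cluster 2 (43 cells, epithelial-like, led by Cyp2f2, Krt4, Krt15, Serpinb11 and Upk3bl) had Pdgfa in 65.1% (49.1 to 79.0%) of cells, its highest share among the CB clusters, at 35.1 CPM. Pdgfra was found in 27.9% of these cells, but at 12.7 CPM. CB cluster 4 (20 cells, endothelial-like, led by Icam2, Cd93, Pecam1, Adgrl4 and Gja4, all of pool 2) had Pdgfb in 55.0% (31.5 to 76.9%) of cells at 39.8 CPM, which was 50.6% of the culture's Pdgfb counts. There Pdgfra was at 0.172 CPM, and Pdgfc, Ddr2 and Thy1 were in 0 of 20 cells, where the exact 95% interval reaches 16.8%. The remaining CB cluster 0 (87 cells, unnamed, led by Car14, Actc1, Sall4, Tdh and Lrp2) held 49.8% of Pdgfa counts, and 32.2% of Pdgfb counts in 5 cells.

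CPCC cluster 1 (55 cells, unnamed, led by Fbln5, Mgp, Col1a2, Cdh11 and Col1a1) held 99.8% of Pdgfra counts, 97.8% of Pdgfrb counts, 99.8% of Ddr2 counts and 84.3% of Thy1 counts. The 4 Pdgfra cells with 6 endoderm genes were in this same cluster. Pdgfa and Pdgfc were shared between it, at 39.1 and 63.3 CPM, and the pluripotent-like cluster 0 (66 cells, led by Nr0b1, Calcoco2, Hsd17b14, Tdh and Khdc3), at 25.8 and 23.9 CPM. In cluster 0 Pdgfra was in 0 of 66 cells, with an exact 95% interval up to 5.44%. Pdgfb was spread over several clusters. In cluster 1, which holds the receptors, it was in 16 of 55 cells at 7.04 CPM, with 31.9% of the counts, and without its highest cell at 5.92 CPM. Of these 16 cells 3 had a receptor, out of 31 receptor cells in the cluster, and 13 had none, out of 24. It was also found in cluster 2 (30 cells, unnamed, led by Fgf8, Ackr4, Lix1, Fgf5 and Wipf3), at 21.1 CPM in 33.3% (17.3 to 52.8%) of cells, and in the macrophage-like cluster 3 (14 cells, all of pool 2, led by C1qa, Cx3cr1, Lyz2, Cd33 and Lilr4b), at 15.5 CPM in 35.7% (12.8 to 64.9%). A single cell held 57.3% of the Pdgfb counts of cluster 2, and without that cell the cluster was at 9.67 CPM. In cluster 3 a single cell held 77.1%, without which the level was 3.998 CPM, so the order of these clusters rests on single cells. With 15 components the highest level was that of the 14-cell cluster, at 15.5 CPM, followed by the receptor cluster, then of 66 cells, at 10.5 CPM with 50.9% of the counts, and a cluster of 30 cells at 9.43 CPM. The macrophage-like cluster had Pdgfa in 1 of 14 cells and Pdgfc in none.

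**Figure D5:**
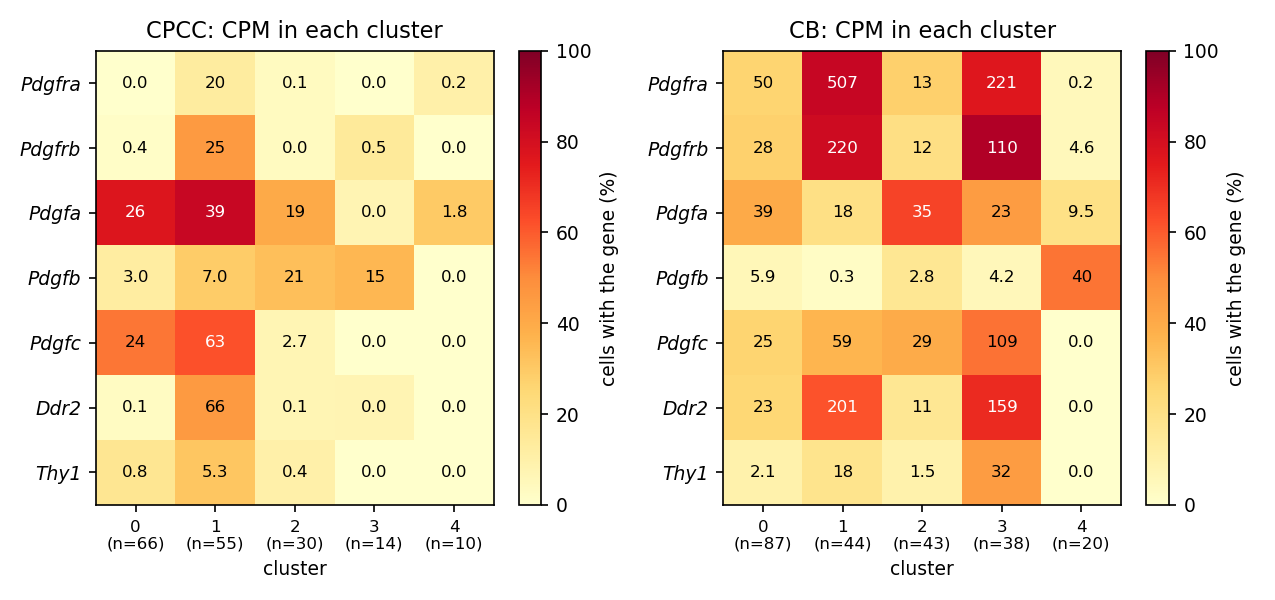
The 7 genes in the clusters of CPCC and CB: colour gives the percent of cells with the gene and the printed number its CPM in the cluster. CB clusters 1 and 3 carry both receptors and Ddr2, CB cluster 4 carries Pdgfb, and CPCC cluster 1 carries nearly all receptor counts.

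The genes whose values over cells were most like each member were ranked by the mean within-pool Spearman correlation of log2(CPM + 1), in the culture where the member was found in the largest share of cells. Pdgfra in CB (219 cells) was most like Col3a1 (0.45), Col5a2 (0.44), Bicc1 (0.43), Snai1 (0.42) and Mfap4 (0.42), although the coefficient of Mfap4 was -0.02 in pool 2. Pdgfrb was most like Col3a1 (0.61), Lgals1 (0.59), Bgn (0.56), Col1a1 (0.55) and Cdh11 (0.54). Ddr2 was also most like Col3a1 (0.52), the fibrillar collagen chain, followed by Cdh11 (0.52), Lum (0.49), Fbn2 (0.49) and Col1a2 (0.46). Thy1 in CPCC (169 cells) was most like Sema3a (0.58), Gpr176 (0.54), Lrrc15 (0.53), Ddr2 (0.53) and Osmr (0.51). The ligands had weaker partners: Pdgfa in mESC (203 cells) came closest to Cdc20 (0.35), Ube2c (0.34), Ephb4 (0.34), Gm5539 (0.33) and Tubb4b (0.33). Pdgfc in mESC came closest to Eif5a (0.35), Prdx6 (0.35), Endov (0.33), Zfp281 (0.32) and Chchd2 (0.32), where Prdx6 and Chchd2 were at 0.07 and 0.03 in pool 1. Pdgfb in CPCC came closest to Bcorl1 (0.36), Pfkfb3 (0.36), Heg1 (0.35), Rhob (0.35) and Jun (0.33). Cells of a pool share their library and differ in depth, so the values are given without a p.

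The rest of the pathway was read from 3 fixed lists. Of 9 genes for ligand processing and co-receptors that both tables listed, 8 were at least 2-fold higher in CB than in mESC and 1 lower, beside 24.9% and 11.3% of all genes, with a median log2 ratio of 2.43. The highest were Plat (6.91), the tissue plasminogen activator that frees active PDGF-C, the co-receptor Nrp1 (6.80) and Pdgfrl (5.96), a receptor-like protein without a kinase. Plat was at 0.142, 72.6 and 136 CPM in mESC, CPCC and CB, so that the protease, unlike Pdgfc itself, was nearly missing from the stem cells. The lowest were Pcsk6 (-1.70), a proprotein convertase at 41.1 CPM in mESC and 11.9 CPM in CB, Furin (1.15) and Lrp1 (2.22). The fourth ligand, Pdgfd, was not among the genes listed for mESC and stood at 8.15 CPM in CPCC and 12.004 CPM in CB.

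Of 28 genes that relay the receptor signal inside the cell, 12 were at least 2-fold higher in CB than in mESC and 1 lower, beside the same 24.9% and 11.3% of all genes, with a median log2 ratio of 0.72. Sphk1 (2.995), a sphingosine kinase, the PI3 kinase subunit Pik3r1 (2.88) and the MAP kinase Mapk3 (2.65) were highest, and Map2k1 (-1.13) and Hras (-0.38) were among the lowest. Mapk3 was at 11.7 CPM in mESC and 78.5 CPM in CB. Of 13 genes that limit the signal, 7 were at least 2-fold higher and none lower, with a median of 1.19. Dusp6 (5.36), a phosphatase of MAP kinases, was at 3.02, 112 and 164 CPM in mESC, CPCC and CB. Spry1 (3.67) and Socs3 (2.62) followed, and Ptpn2 (-0.80), Acp1 (-0.47) and Ptprj (0.25) were lowest. For CPCC over mESC the numbers at least 2-fold higher and lower were 7 and 1 of 9, 4 and 0 of 28, and 3 and 0 of 13, beside 13.4% and 6.38% of all genes, so that the share of the relay genes (4 of 28) was near the background. For CB over CPCC they were 3 and 0 of 10, 7 and 0 of 28, and 3 and 0 of 14, beside 17.0% and 7.54%. All of these genes answer to many receptors.

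Counts of 4 members could include reads of a neighbouring gene, since the counting was not stated to use strand. Pdgfa shares 813 exon bases with 6330403L08Rik, Pdgfra 652 with Gm42802, Gm42803 and Mir7025, Pdgfc 147 with Gm16000 and Ddr2 90 with 3110045C21Rik. The partner of Pdgfa was at 0.468, 0.924 and 1.85 CPM in mESC, CPCC and CB, and that of Ddr2 at 1.44, 5.21 and 4.44 CPM. The 4 remaining partners were not among the genes the tables list.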

How the data were processed

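Single-cell RNA-seq of 3 samples (mESC, CPCC and CB, 1 per group) was analysed. Libraries were SMART-Seq v4 from a Fluidigm C1. Per the labels' processing notes, reads were aligned by the authors with STAR 2.7 to mm10; the counting model and its use of strand were not given in the sources used here. The authors deposited whole counts for CPCC and estimated counts for mESC and CB, with fractional values for 26.4% and 27.4% of the entries above 0, so levels between those tables may differ through counting. For CPCC, 208 rows without a gene name and 23 rows with a date for a symbol were left out, which held 0.139% of counts, and 2 columns matched no sample and were not used.

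Counts were summed over cells and scaled to CPM on library totals. Ratios are log2 of CPM + 1. A gene was called detected at 1 count, and differences of at least 2-fold were counted. Intervals are exact Poisson (levels) and Clopper-Pearson (shares) at 95%, and cover counting error only. Cells were clustered within each culture in Seurat 5.3.0 (R 4.3.3). No cell was left out and no doublet caller was run. The genes named from each list (the 3 highest and 3 lowest for CB over mESC, and the 5 genes most like each member) were taken by rule, and a few of them are not reported here. The endoderm genes of single Pdgfra cells were looked at one by one after their values were seen. The members and lists were chosen with earlier results of these data known. Scripts were checked on simulated counts. Alternatives were edgeR 4.0.16 and DESeq2 1.42.0 scaling, pseudocounts, cell weights and filters, detection limits and pools left out.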

Additional observations from a re-analysis of the deposited data

How the results depend on the processing

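No paired analysis was possible because each culture is 1 sample, its cell columns hold no replicate number and nothing was tested. None of the single-gene log2 ratios of at least 2-fold changed sign under an alternative. Of 280 alternative values, each for 1 gene, pair and setting, 12 had a changed sign, all for smaller ratios of Pdgfa, Pdgfb and Pdgfc. In 9 of the alternative values a ratio of at least 2-fold fell below it, 6 of them with a pseudocount of 10 CPM. The median log2 ratio of the members moved with the pseudocount, from 2.86 to 4.48 at 0.1 CPM and 0.78 at 10 CPM for CPCC over mESC, from 2.62 to 4.25 and 0.85 for CB over mESC, and from 1.61 to 0.66 at 10 CPM for CB over CPCC. With the same weight for every cell it was 2.26 for CPCC over mESC and 1.54 for CB over CPCC, and with edgeR or DESeq2 scaling 1.41 and 1.42 for CB over CPCC. Without the cell with the highest count of each gene, an alternative chosen after seeing the data, it was 2.18 for CPCC over mESC. Leaving out 1 pool at a time gave 0.59 to 2.97 for CPCC over mESC, lowest without CPCC pool 2, 2.59 to 3.23 for CB over mESC and 0.54 to 2.20 for CB over CPCC, lowest without CB pool 3. Without CPCC pool 1 the CB over CPCC median was 0.96.

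The share of receptor cells in CPCC was 13.7% at a limit of 10 CPM in place of 1 count, and 11.4% to 29.2% without 1 of the pools, the lowest being without pool 2. In CB it was 46.3% to 70.1% without 1 pool and in mESC 2.40% to 3.62%. The share of receptor cells with a ligand was 44.6% in CB at 10 CPM, and 66.7% to 92.9% in CPCC with 1 pool left out, the lowest without pool 2. Over the single genes, 130 alternative values stayed within the counting interval of the ratio and 150 moved beyond it. TMM and DESeq2 scaling shifted the median of all genes for CB over mESC from 0.13 to 0.02 and 0.01.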
